A study of Mus musculus with 12 samples.

Results

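The genes described here encode the proteases that cut the extracellular matrix and the inhibitors that hold them in check: the matrix metalloproteinases (MMPs), the ADAMTS proteases and the tissue inhibitors of metalloproteinases (TIMPs). They were chosen by gene symbol (Mmp, Timp or Adamts followed by a number), with earlier results of these data known. This gave 43 of the 18211 genes in the expression table: 20 MMPs, 4 TIMPs and 19 ADAMTS genes. Of these, 34 had enough reads to be tested (17 MMPs, 3 TIMPs and 14 ADAMTS genes). Adamts17 and Adamts18 summed to 47 and 35 counts over all tumors and did not pass the filter on low counts. The other 7 (Adamts3, Adamts20, Timp4, Mmp1b, Mmp16, Mmp21 and Adamts19) summed to under 30 counts each, with Adamts3 just under that limit at 29, and are only listed.

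The RNA came from 12 tumors grown under the skin of C57BL/6 mice from MC38 cells, an established mouse colon carcinoma line, in 4 groups of 3. All mice were female and 5 weeks old and carried the same cells. They were divided into groups on day 7. CK mice received vehicle, PB-020 mice an oral inhibitor of the insulin-like growth factor receptor IGF-1R at 50 mg/kg per day, anti-PD-1 mice 200 μg of an antibody against the immune checkpoint receptor PD-1 at each injection, and PB-020/anti-PD-1 mice, called the combination group here, received both. Each library is tissue of a tumor from 1 cell line, so transcripts of the cancer cells and of the host's cells were measured together. The study reported that the combination slowed tumor growth more than either treatment did. The part of tumor size in the differences below was not tested.

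MMPs are zinc proteases that are made as inactive precursors. The collagenases open fibrillar collagen, the gelatinases Mmp2 and Mmp9 degrade it further along with basement membrane collagen, and membrane-type MMPs act at the cell surface, where MMP14, held together with TIMP2, activates the precursor of MMP2. ADAMTS proteases trim procollagens and cleave proteoglycans such as versican, and TIMPs bind the active site of MMPs one to one. In tumors, fibroblasts, macrophages and neutrophils make much of this set, and Mmp12 is known as the elastase of macrophages.

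The libraries held between 16545394 and 17217035 expected counts, so depth differed little. Levels are given in FPKM, which is corrected for gene length and library size and so can be compared between genes. The epithelial keratins Krt8, Krt18 and Krt19, together with Cdx2, Cldn4 and Vil1, lay at or under 0.5 FPKM in every tumor, and the whole list of 8 epithelial genes summed to only 2.33 to 4.29 FPKM, so these markers did not show the colon epithelial origin of MC38. A pair of libraries stood apart. CK 3 held 414 FPKM of 9 summed neutrophil markers against 6.12 to 34.1 in the other 11 tumors, and 197 FPKM of 5 adipocyte markers against 28.5 to 62.6. The library anti-PD-1 1 held 644 FPKM of 10 skeletal muscle markers against 10.9 to 67.4 elsewhere, and the most macrophage marker RNA, 2350 FPKM against 1000 to 1590. Where leaving out 1 of them changed a call against CK, that is given with the gene or in the counts without it.

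A few genes made up nearly all of this set in the control tumors. Mmp2 was highest among the MMPs at 481 ± 39.3 FPKM (SD, n = 3), followed by Mmp12 at 120 ± 19 and Mmp14 at 114 ± 7.35. Those 3 stood above Mmp11 at 39.1 ± 4.79 FPKM, and no other MMP averaged above 25.1 FPKM, the mean of Mmp3, which rested on CK 3 (56.9 FPKM, against 8.71 and 9.62 in the other CK tumors). Mmp12 and Mmp14 were within the spread of each other. Among the inhibitors, Timp2 at 440 ± 29.2 FPKM exceeded Timp1 at 144 ± 32.4 and Timp3 at 102 ± 9.48, which overlapped in CK. Timp4, the inhibitor typical of heart and fat, summed to 13 counts over all 12 tumors. The ADAMTS genes were much lower. Adamts1 at 12.8 ± 1.93 and Adamts7 at 12.8 ± 2.08 FPKM led them, and the 19 genes together reached 72.3 ± 9.29 FPKM.

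The total MMP level was lower in the tumors given anti-PD-1 than in CK. Its make-up shifted from Mmp2 toward Mmp12 in those tumors and in PB-020 2, which received no antibody. The summed MMP level was 744.3, 857.8 and 891.6 FPKM in CK, 747.8, 743.6 and 786.8 in PB-020, 657.9, 646.2 and 623.4 in anti-PD-1 and 578.7, 664 and 619.8 in the combination group. The tumors of either anti-PD-1 treated group thus lay below all CK tumors, while PB-020 tumors overlapped with CK. Mmp2 made up 52.3% to 61.3% of that sum in CK and 33.3% to 41.8% in the combination group. Mmp12 went the other way, from 13.3% to 15.8% in CK to 29.5% to 39.9%. In PB-020 the shares were 44.2% to 57.6% for Mmp2 and 15.8% to 27.7% for Mmp12. With anti-PD-1 they were 40.6% to 49.4% and 23.2% to 31.8%. PB-020 2 lay within the anti-PD-1 range in both shares, and the other PB-020 tumors did not. In the tumor combination 2, Mmp12 exceeded Mmp2, with 1.2 transcripts of Mmp12 per Mmp2, where CK held 0.22 to 0.3. This ratio was 0.28 to 0.63 in PB-020 and 0.47 to 0.77 in anti-PD-1. TIMP transcripts summed to 685 ± 6.11 FPKM in CK against 607 ± 40.7 in the combination group, and MMP transcripts per TIMP transcript ranged from 1.09 to 1.31 in CK, 1.05 to 1.15 in PB-020, 0.96 to 1.03 in anti-PD-1 and 0.94 to 1.18 in the combination group. The anti-PD-1 tumors lay wholly below CK in this ratio, and the other groups overlapped with CK.

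**Figure D1:**
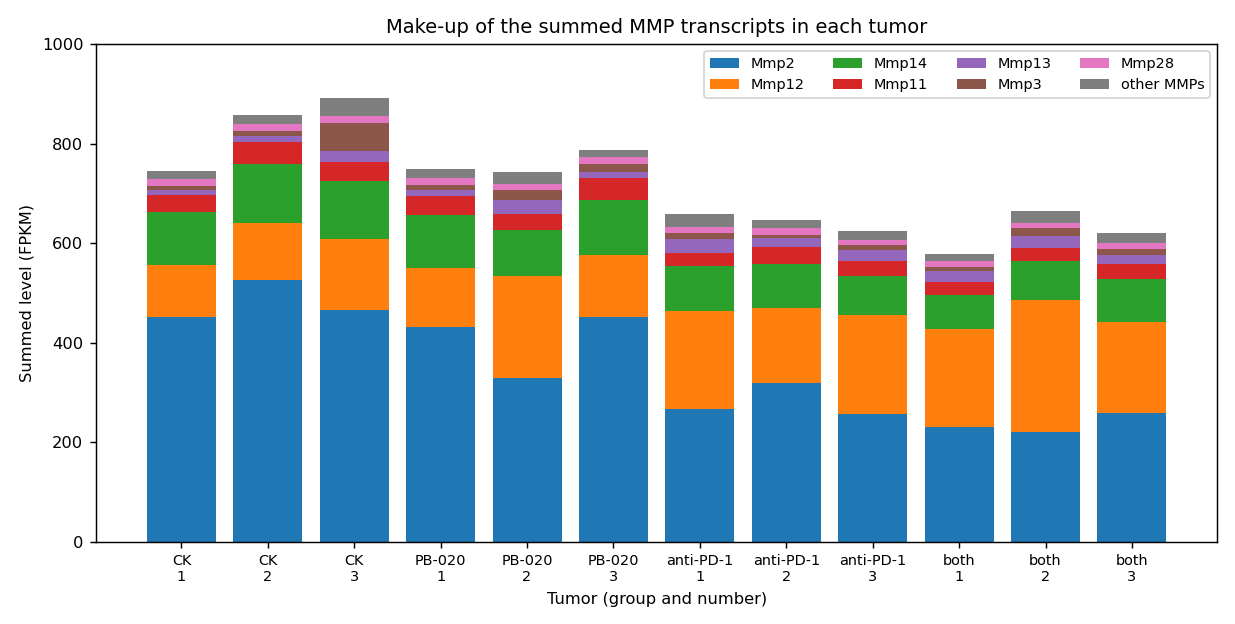
Summed MMP level in each of the 12 tumors (y axis, FPKM), stacked by gene, with the 13 lower MMPs pooled as other MMPs. Mmp2 shrinks from 52.3% to 61.3% of the bar in CK to 33.3% to 41.8% where both drugs were given, and Mmp12 grows to 29.5% to 39.9%.

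Each treated group was then tested against CK across all 13563 genes that passed the filter, with edgeR's quasi-likelihood test, and a gene is said to have changed where its Benjamini-Hochberg adjusted p was under 0.05. With PB-020 alone, 0 of the 34 members changed, as did 0 (0%) of all genes. With anti-PD-1, 6 of the 34 (17.6%) changed, against 8.26% of all genes, and all 6 fell, where 4.08% of all genes fell and 4.18% rose. In the combination group 12 (35.3%) changed, against 17.9% of all genes: 10 fell (29.4%, against 9.60%) and 2 rose (5.88%, against 8.35%). These comparisons use the same CK tumors, so they are not independent of each other. In bulk tumors, fewer cells of a type and less RNA per cell cannot be told apart in any of these values.

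The shift was in the direction of lower levels for most of the set. The median log2 change over the 34 members was -0.10 with PB-020, -0.28 with anti-PD-1 and -0.30 where both drugs were given, where the median of all genes was 0.00 in each. The MMPs were split, with a median of 0.40 over 17 in the combination group (2 rose, 4 fell), while the 14 ADAMTS genes had a median of -0.36 (0 rose, 5 fell). By FPKM, all 3 combination tumors lay below all 3 CK tumors for 17 of the 34 members, against 22.4% of all genes, and above them for 5, against 17.9%. With anti-PD-1 these counts were 13 (17.2% of all genes) below and 1 (11.8%) above. Without CK 3 the counts of changed members were 4 with anti-PD-1 and 9 where both drugs were given, and without anti-PD-1 1 they were 7 and 14. How many of all genes passed in these refits was not counted, so these counts are not read as a result about the members.

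**Figure D2:**
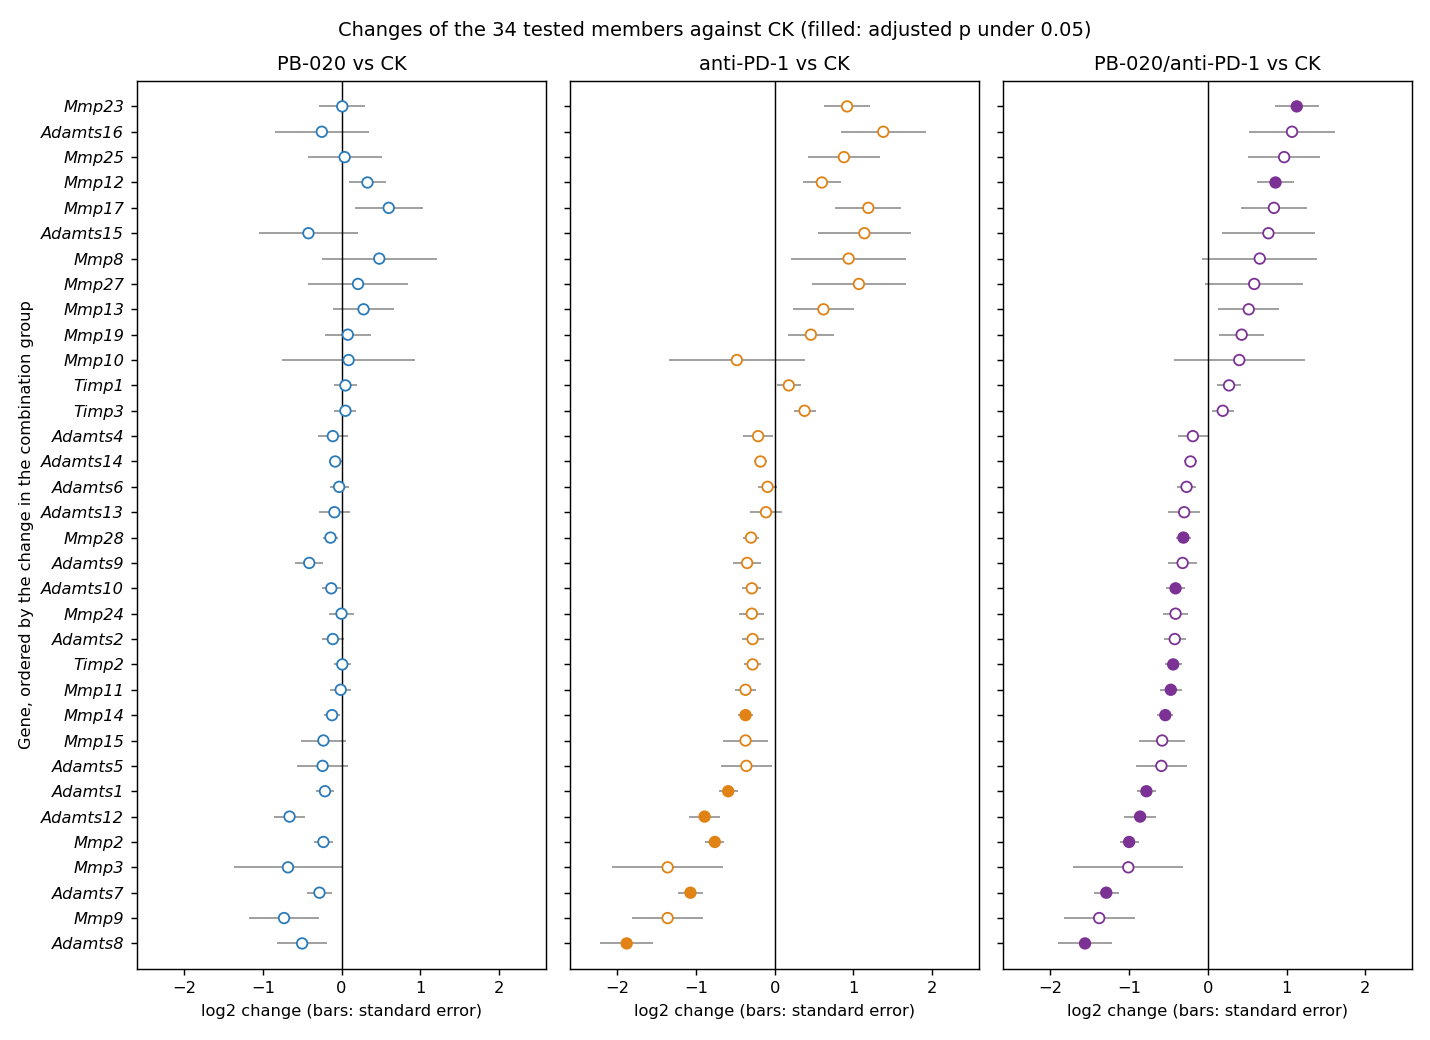
Log2 change against CK (x axis) of the 34 tested genes in the 3 treated groups, with bars for the standard error and filled points for an adjusted p under 0.05. No point is filled for PB-020, 6 are filled for anti-PD-1, all to the left of 0, and 12 for the combination group, 10 to the left and 2 to the right.

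Mmp2, gelatinase A, showed the change with the smallest p of the set (NCBI gene 17390, chromosome 8, 92827290 to 92853421 on GRCm38.p6). It measured 451, 526 and 466 FPKM in CK, 431, 328 and 451 in PB-020, 267, 319 and 256 in anti-PD-1 and 231, 221 and 259 in the combination group. Every anti-PD-1 and combination tumor was below every CK tumor, and the highest of the 3 combination tumors was under the lowest PB-020 tumor. The mean fell to 0.493 of CK in the combination group (log2 change -1.0 ± 0.12 SE, edgeR adjusted p = 0.0012) and to 0.584 with anti-PD-1 (-0.76 ± 0.12, adjusted p = 0.0068). With PB-020 the log2 difference was -0.23 ± 0.12, and it did not pass (edgeR adjusted p = 0.87). The call against CK in the combination group held under all 22 other settings tried, and the one with anti-PD-1 under 21. Fitting only the anti-PD-1 and CK tumors gave 0 called members, Mmp2 included. How many of all genes passed in that fit was not counted.

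Mmp14, the membrane-type MMP that activates the MMP2 precursor, fell less (gene 17387, chromosome 14, 54431598 to 54442456). Its levels were 106, 119 and 117 FPKM in CK, 106, 91.7 and 112 in PB-020, 91.9, 89.7 and 79.2 in anti-PD-1 and 68.0, 78.1 and 85.6 in the combination group. PB-020 overlapped CK, while both other groups lay wholly below it. The log2 change was -0.54 ± 0.10 in the combination group (edgeR adjusted p = 0.0039) and -0.37 ± 0.10 with anti-PD-1 (adjusted p = 0.032). The first of these calls held under all 22 other settings. The second was lost in 6 of them, among them those without CK 2, CK 3 or anti-PD-1 3, with adjusted p up to 0.13.

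Timp2, which inhibits MMP2 and at the same time bridges it to MMP14, passed the test in the combination group and not with anti-PD-1 alone (gene 21858, chromosome 11, 118301061 to 118355411). It measured 431, 472 and 416 FPKM in CK, 431, 402 and 476 in PB-020, 346, 408 and 317 in anti-PD-1 and 310, 294 and 359 in the combination group. CK and PB-020 tumors covered the same range, and the combination tumors lay under all of them. The log2 change was -0.44 ± 0.11 (edgeR adjusted p = 0.017) in the combination group and -0.28 ± 0.11 with anti-PD-1 (adjusted p = 0.12), and the difference between these 2 groups did not pass (-0.15 ± 0.11, adjusted p = 0.79). Without CK 2, combination 1 or combination 2 the combination call was lost, and over all settings the adjusted p ran from 0.00075 to 0.082.

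Within this trio the ratios differed. Mmp2 per Timp2 was 1.05 to 1.12 in CK, 0.82 to 1 in PB-020, 0.77 to 0.81 in anti-PD-1 and 0.72 to 0.75 in the combination group, so that no range touched another. Mmp14 per Timp2 was between 0.22 and 0.28 in all 12 tumors. These ratios were chosen after the changes of the single genes were known and are given with no test.

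**Figure D3:**
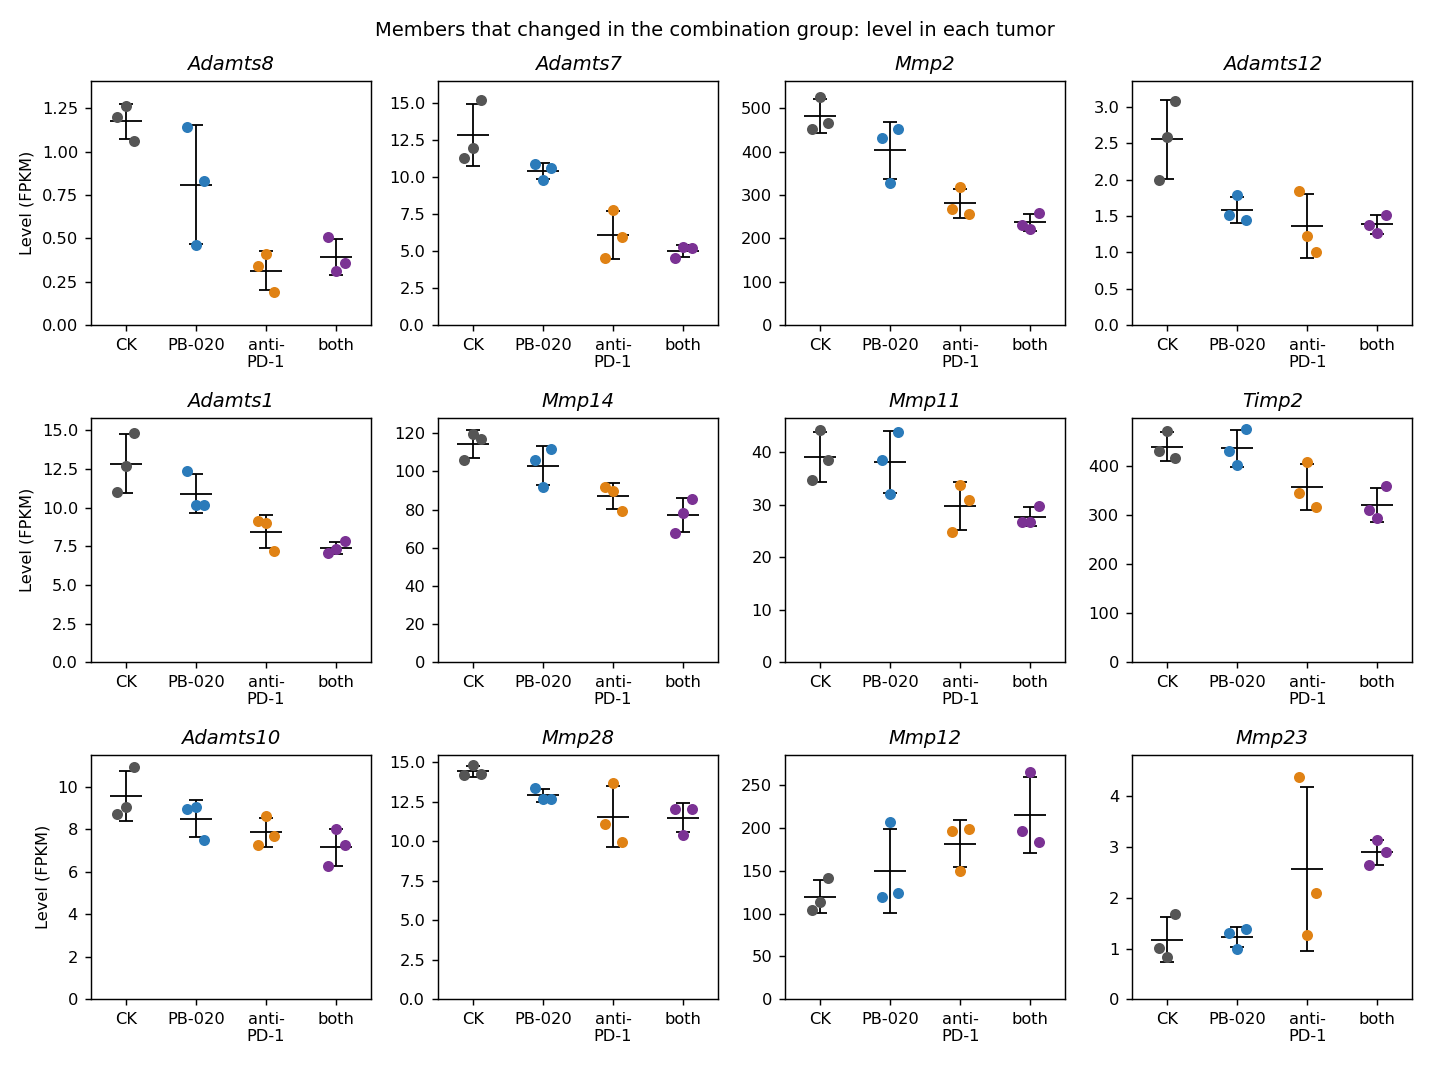
FPKM of the 12 genes that changed in the combination group, by group (x axis), with 1 point for each tumor, the mean as a horizontal line and the SD as a bar, and each y axis starting at 0. The first 10 genes are lower with anti-PD-1 or with both drugs, while Mmp12 and Mmp23 are higher, the latter with 1 high anti-PD-1 tumor.

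Sums of fibroblast, keratinocyte, pericyte or smooth muscle and T cell markers also differed between CK and the combination group. The 11 fibroblast genes summed to 1960 to 2620 FPKM in CK, 1840 to 1930 in PB-020, 956 to 1860 in anti-PD-1 and 1020 to 1440 in the combination group, and of the 11, 5 fell (Col3a1, Col5a1, Dcn, Pdgfra and Pdgfrb) and 1 rose (Postn) in the combination group. Collagen III (Col3a1) measured 1350 ± 177 FPKM in CK against 452 ± 78 in the combination group (log2 change -1.56 ± 0.22, edgeR adjusted p = 0.0023). The list did not move one way. Its median log2 change in the combination group was 0.24, from -1.56 to 1.69, and periostin (Postn) rose from 71.6 ± 13 to 179 ± 22.3 FPKM (1.34 ± 0.37, edgeR adjusted p = 0.039). The lower sum lay in its abundant genes Col3a1 and Dcn, and the other 9, a split made after the values were seen, summed to 432 to 570 FPKM in CK against 533 to 754 in the combination group. The 6 keratinocyte markers summed to 78.7 to 117 FPKM in CK against 167 to 208 in the combination group. Most of that sum was 1 gene, Krt14 (92.9 ± 19.1 to 183 ± 21.1 FPKM), the only 1 of the 4 tested that rose. The list's median log2 change was 1.32 in the combination group and -0.69 with anti-PD-1. The 8 pericyte or smooth muscle markers summed to 63.8 to 74.7 FPKM in CK against 85.8 to 96.6 in the combination group. Of these only Tagln rose there, and the log2 changes ran from -1.4 to 1.51. The 10 T cell markers summed to 14.6 to 19.5 FPKM in CK against 38.2 to 63.1 in the combination group, and 9 of 10 rose. The part of these cells in the protease results was not tested.

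Mmp9, the other gelatinase, gave a large difference that did not pass. It measured 6.25, 8.74 and 19.6 FPKM in CK, 8.07, 8.05 and 4.29 in PB-020, 3.79, 5.44 and 4.0 in anti-PD-1 and 2.89, 4.79 and 5.43 in the combination group. The combination tumors lay below CK without overlap, but CK 3 was more than the other CK tumors together. The log2 difference was -1.38 ± 0.45 (edgeR adjusted p = 0.066) in the combination group, and -0.76 ± 0.33 (adjusted p = 0.16) without CK 3. DESeq2 did call Mmp9, with anti-PD-1 (DESeq2 adjusted p = 0.029) and in the combination group, where edgeR without CK 1 called it too.

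Mmp11, stromelysin-3, a fibroblast product of tumor stroma, measured 34.6, 44.1 and 38.5 FPKM in CK and 26.7, 26.6 and 29.8 in the combination group, with no overlap. It fell there by a log2 change of -0.47 ± 0.14 (edgeR adjusted p = 0.031). With PB-020 its difference was -0.01 ± 0.13. With anti-PD-1 it was -0.37 ± 0.13 (edgeR adjusted p = 0.10), with all tumors below CK. The combination did not differ from anti-PD-1 at the threshold (-0.10 ± 0.14, edgeR adjusted p = 0.91). Mmp28, epilysin, measured 14.2, 14.8 and 14.3 FPKM in CK and 12, 10.4 and 12 in the combination group. It fell by a log2 change of -0.31 ± 0.10 (edgeR adjusted p = 0.045). With anti-PD-1 it was at -0.30 ± 0.10 (edgeR adjusted p = 0.073), again with all tumors below CK. The difference between these groups did not pass (-0.01 ± 0.10, edgeR adjusted p = 0.99). The combination call of Mmp28 was lost in 11 of 22 other settings. These include leaving out any 1 of the 9 CK, PB-020 and combination tumors (adjusted p up to 0.17). That of Mmp11 was lost in 6, without CK 2, CK 3, PB-020 1 or any 1 of the combination tumors (adjusted p up to 0.13). The other membrane-type genes Mmp15, Mmp17, Mmp24 and Mmp25 ranged from -0.58 to 0.97 in log2 difference in the combination group and did not pass.

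Mmp12, the macrophage elastase, rose (gene 17381, chromosome 9, 7344397 to 7360461). It measured 105, 114 and 141 FPKM in CK, 119, 206 and 124 in PB-020, 196, 150 and 198 in anti-PD-1 and 197, 265 and 183 in the combination group. All 6 tumors given the antibody exceeded the highest CK tumor, and of the PB-020 tumors 1 did. The mean was 1.79 times that of CK in the combination group (log2 change 0.86 ± 0.24, edgeR adjusted p = 0.036), with 0.60 ± 0.24 (adjusted p = 0.15) for anti-PD-1 and 0.33 ± 0.24 (adjusted p = 0.90) for PB-020. The combination call was lost in 7 of 22 other settings, 5 of them omissions of 1 tumor (CK 1, CK 2, anti-PD-1 1, combination 1 or combination 2), and over all settings the adjusted p ran from 0.0085 to 0.11. Of the 9 macrophage markers, 0 changed in any group against CK, and their sum was 1260 to 1590 FPKM in CK against 1310 to 1530 in the combination group.

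Mmp12 lies in a cluster of 7 MMP genes on chromosome 9 (Mmp13, Mmp12, Mmp1b, Mmp3, Mmp10, Mmp8 and Mmp27, from 7272514 to 7581885 on GRCm38.p6, 309 kb). It holds collagenases (Mmp13, Mmp8, Mmp1b), stromelysins (Mmp3, Mmp10) and the elastase. RefSeq promoters, running from 250 bases before to 50 after a start site, were found for 29 member genes (31 promoters), and 3 motifs were searched on both strands: TGANTCA, the site of AP-1, TATAAA, the TATA box, and GGGCGG, the GC box. A TGANTCA match was present in 5 member genes (Mmp10, Mmp12, Mmp13, Mmp1b and Mmp3), all from the cluster. That was 5 of the 31 member promoters, against 7.81% of 32851 promoters of all genes. TATAAA was in 8 member genes (8 of the 31 member promoters, against 13.6% of all promoters). GGGCGG was in 18 member genes (18 of 31, against 35.7% of all promoters), and none of these 18 was in the cluster. Of the 8 with TATAAA, 6 were in the cluster. The TGANTCA match in Mmp12 was in a second, downstream start only, and its upstream start held none of the motifs. Also in the cluster, Mmp27 held none of them and Mmp8 only TATAAA. Among the genes that fell, Mmp2, Adamts7, Adamts8 and Adamts10 had no promoter found and were not searched. Of the fallen genes that were searched, Adamts1 held TATAAA besides GGGCGG, and Adamts12 held none of the motifs. The 100 bases before the start site are shown 5′ to 3′ with matches in capitals. The windows were picked by their matches: first 4 cluster genes with TGANTCA (Mmp12 at its downstream start). Then follow, for contrast, 3 genes outside the cluster that fell and hold GGGCGG.
Mmp13: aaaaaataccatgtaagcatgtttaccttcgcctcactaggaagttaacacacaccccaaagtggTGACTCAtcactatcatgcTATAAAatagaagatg
Mmp3: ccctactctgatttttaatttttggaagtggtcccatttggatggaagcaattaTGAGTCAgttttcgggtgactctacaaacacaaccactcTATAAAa
Mmp10: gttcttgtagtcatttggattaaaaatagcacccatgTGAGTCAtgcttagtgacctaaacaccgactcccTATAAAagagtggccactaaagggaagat
Mmp12: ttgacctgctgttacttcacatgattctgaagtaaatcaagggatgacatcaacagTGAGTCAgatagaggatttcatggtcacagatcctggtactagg
Mmp14: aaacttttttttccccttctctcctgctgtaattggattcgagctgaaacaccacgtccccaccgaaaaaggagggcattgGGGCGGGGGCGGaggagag
Timp2: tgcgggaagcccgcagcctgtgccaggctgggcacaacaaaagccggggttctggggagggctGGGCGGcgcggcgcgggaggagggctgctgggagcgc
Mmp11: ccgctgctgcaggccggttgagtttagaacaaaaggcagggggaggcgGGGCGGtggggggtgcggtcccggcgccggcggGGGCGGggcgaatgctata
These windows lie, in that order, at chr9:7272414-7272513, chr9:7445722-7445821, chr9:7502242-7502341, chr9:7347274-7347373, chr14:54431498-54431597, chr11:118355412-118355511 on the reverse strand and chr10:75932503-75932602 on the reverse strand on GRCm38.p6. The match of a motif describes letters in a window and was not tested as a site.

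The highest tumor of each group was compared between the genes of the cluster and the other members. In CK, the tumor CK 3 was the highest of its group in all 6 tested cluster genes, as was combination 2 in its group, and PB-020 2 was the highest or tied in all 6. In the anti-PD-1 group the highest tumor was anti-PD-1 1 for 4 genes and anti-PD-1 3 for 2. Among the other 28 tested members, CK 3 was the highest of its group for 13, PB-020 2 for 9, anti-PD-1 1 for 16 and combination 2 for 9, and the difference from the cluster was not tested. The 9 neutrophil markers were also highest in CK 3 (414 FPKM), PB-020 2 (26.2) and combination 2 (34.1), and in anti-PD-1 they were highest in anti-PD-1 3 (22.9, with 15.6 in anti-PD-1 1), and the part of neutrophils in the cluster genes was not tested. Of all members, 3 cluster genes had the widest spread between replicates. The biological coefficient of variation was 68.1% for Mmp10, 59.2% for Mmp8 and 56.5% for Mmp3, against a median of 9.86% over all genes, 8.82% for Mmp14 and 7.72% for Adamts14.

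**Figure D4:**
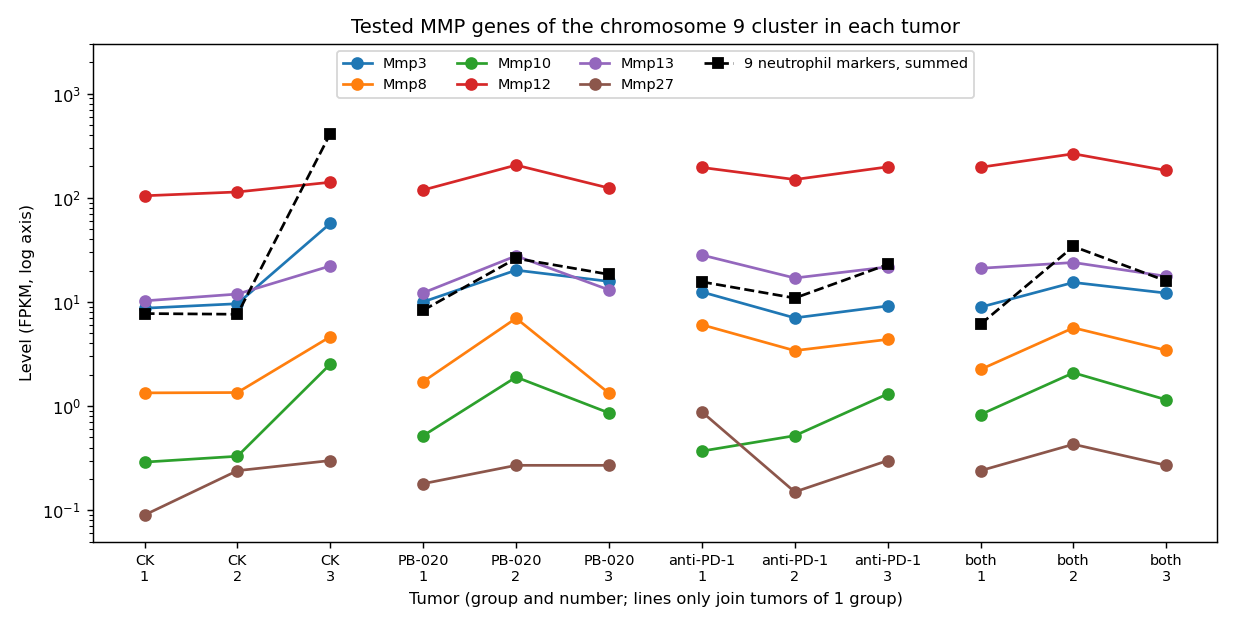
FPKM of the 6 tested cluster genes in each tumor (y axis, log scale), with the sum of 9 neutrophil markers as black squares, where lines join the tumors of 1 group only. CK 3, PB-020 2 and combination 2 are at or tied for the top of their groups in every gene and in the neutrophil markers, which reach 414 in CK 3.

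The other 5 tested cluster genes did not pass the test in any comparison. Mmp3, stromelysin-1, which activates other MMPs, measured 8.71, 9.62 and 56.9 FPKM in CK and 8.92, 15.4 and 12.2 in the combination group. Its log2 difference was -1.01 ± 0.70 with CK 3 and 0.42 ± 0.34 without it, so the direction turned on that tumor. Mmp10 had 0.29, 0.33 and 2.53 FPKM in CK and 0.83, 2.09 and 1.15 in the combination group, and its difference went from 0.40 ± 0.83 to 2.12 ± 0.71 (edgeR adjusted p = 0.072) without CK 3. Mmp13, a collagenase, went from 0.52 ± 0.39 to 0.93 ± 0.38, and Mmp8, the neutrophil collagenase, from 0.66 ± 0.73 to 1.51 ± 0.77, none called. Mmp12 itself was called without CK 3 too (0.99 ± 0.27, edgeR adjusted p = 0.046). With all tumors, the median log2 change of the 6 cluster genes was 0.56 (1 rose, 0 fell) and that of the other 11 tested MMPs was -0.41 (1 rose, 4 fell). This split was drawn after the values were known.

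Mmp23, which encodes a membrane-anchored MMP outside the cluster, was the other gene that rose. It measured 1.01, 0.84 and 1.68 FPKM in CK, 1.31, 1.0 and 1.38 in PB-020, 4.37, 1.26 and 2.09 in anti-PD-1 and 2.64, 3.14 and 2.91 in the combination group, on 33 to 105 counts per library. The combination tumors lay above all CK and PB-020 tumors, whereas anti-PD-1 1, the tumor with the muscle markers, was far above its group. The log2 change was 1.13 ± 0.28 (edgeR adjusted p = 0.017) in the combination group, and 1.13 ± 0.22 (adjusted p = 0.0026) without anti-PD-1 1. With anti-PD-1 it was 0.92 ± 0.29 (edgeR adjusted p = 0.061), and 0.53 ± 0.25 without that tumor. The combination call was lost in 5 of 22 other settings, among them those without CK 1, CK 2, combination 1 or combination 2 (adjusted p up to 0.077). The same tumor held the highest Mmp25 (2.37 FPKM), Adamts15 (1.21), Adamts16 (0.74) and Mmp27 (0.88) of all 12, and without it Mmp25 also passed in the combination group (0.97 ± 0.27, edgeR adjusted p = 0.019).

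The other inhibitors, Timp1 and Timp3, did not pass the test in any comparison. Timp1, a TIMP induced in inflammation, measured 153, 108 and 171 FPKM in CK, 133, 161 and 148 in PB-020, 166, 136 and 178 in anti-PD-1 and 184, 161 and 169 in the combination group. The ranges overlapped, and the log2 difference was 0.27 ± 0.15 (edgeR adjusted p = 0.23) in the combination group. Timp3, a TIMP bound to the matrix, measured 99.7, 112 and 93.2 FPKM in CK and 119, 108 and 116 in the combination group, with a log2 difference of 0.19 ± 0.14 (edgeR adjusted p = 0.37), and 157, 126 and 110 with anti-PD-1 (0.38 ± 0.14, adjusted p = 0.11). Timp2 made up 61.1% to 68.2% of TIMP transcripts in CK and 50.7% to 55.8% in the combination group.

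The ADAMTS genes that fell came from several substrate classes. Both genes of the class that cleaves cartilage oligomeric matrix protein (COMP), Adamts7 and Adamts12, fell in both groups given the antibody. Adamts7 (gene 108153, chromosome 9, 90162904 to 90200102) measured 11.3, 12 and 15.2 FPKM in CK, 10.9, 9.81 and 10.6 in PB-020, 4.54, 7.76 and 5.94 in anti-PD-1 and 4.56, 5.24 and 5.23 in the combination group. Every tumor given the antibody was under every tumor not given it. The log2 change was -1.29 ± 0.16 (edgeR adjusted p = 0.0018) in the combination group and -1.07 ± 0.16 (adjusted p = 0.0068) with anti-PD-1, and with PB-020 it was -0.28 ± 0.16 (adjusted p = 0.87).

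Adamts12 was the member with the smallest p against CK in the PB-020 group. It measured 2.0, 2.58 and 3.08 FPKM in CK, 1.52, 1.79 and 1.45 in PB-020, 1.85, 1.22 and 1.01 in anti-PD-1 and 1.38, 1.26 and 1.52 in the combination group. All 9 treated tumors were below the lowest CK tumor. With PB-020 the log2 difference was -0.66 ± 0.20 (unadjusted p = 0.0046, edgeR adjusted p = 0.87), not a call, next to -0.89 ± 0.20 (adjusted p = 0.019) with anti-PD-1 and -0.86 ± 0.20 (adjusted p = 0.012) with both. The interaction, which is what the combination adds to the sum of the single changes, was 0.69 ± 0.28 (unadjusted p = 0.027, edgeR adjusted p = 1). The call of Adamts12 with anti-PD-1 was lost in 4 of 22 other settings, among them those without CK 2, CK 3 or anti-PD-1 3 (adjusted p up to 0.10), and that with both drugs in none.

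Of the proteoglycan-cleaving class, Adamts1 and Adamts8 fell and the other 4 tested did not pass. Adamts1, which cleaves versican and aggrecan (gene 11504, chromosome 16, 85793827 to 85803113), measured 11, 12.7 and 14.8 FPKM in CK, 12.4, 10.2 and 10.2 in PB-020, 9.11, 9.01 and 7.19 in anti-PD-1 and 7.06, 7.31 and 7.81 in the combination group. It fell by a log2 change of -0.78 ± 0.12 (edgeR adjusted p = 0.0023) in the combination group and -0.59 ± 0.12 (adjusted p = 0.013) with anti-PD-1. The latter call was lost in 3 of 22 other settings, among them those without CK 2 or anti-PD-1 3 (adjusted p up to 0.064). Adamts8, a low gene with 14 to 95 counts per library, measured 1.20, 1.26 and 1.06 FPKM in CK, 1.14, 0.46 and 0.83 in PB-020, 0.34, 0.41 and 0.19 in anti-PD-1 and 0.51, 0.31 and 0.36 in the combination group. No antibody-treated tumor reached any CK tumor, and the mean was 0.267 of CK with anti-PD-1 (-1.88 ± 0.34, edgeR adjusted p = 0.0098) and 0.335 with both (-1.56 ± 0.34, adjusted p = 0.0090). On log2(FPKM + 1) the same changes are smaller because Adamts8 is low, down to -0.73 and -0.64. Adamts5, of the same class, was not called in the combination group (-0.59 ± 0.32, edgeR adjusted p = 0.22). It was at 2.97 FPKM in anti-PD-1 1, and without that tumor it passed both in the combination group (-0.59 ± 0.15, edgeR adjusted p = 0.014) and with anti-PD-1 (-0.90 ± 0.18, adjusted p = 0.016).

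Adamts10, which binds fibrillin, fell in the combination group, from 8.74, 9.07 and 10.9 to 6.26, 7.99 and 7.24 FPKM (log2 change -0.41 ± 0.12, edgeR adjusted p = 0.035). With anti-PD-1 it was at -0.29 ± 0.12 (edgeR adjusted p = 0.15), and the difference between these groups did not pass (-0.12 ± 0.12, adjusted p = 0.88). This call in the combination group was lost without CK 2, CK 3, combination 1 or combination 3 (adjusted p up to 0.14). The procollagen N-proteinases Adamts2 and Adamts14 did not pass (-0.42 ± 0.14, edgeR adjusted p = 0.056, and -0.22 ± 0.08, adjusted p = 0.080), although all 3 combination tumors of both were below all CK tumors. Adamts2 passed in 6 of 22 other settings, among them that without anti-PD-1 1 (-0.42 ± 0.11, edgeR adjusted p = 0.015). Adamts13, which cleaves von Willebrand factor, was at -0.30 ± 0.20 (edgeR adjusted p = 0.32).

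PB-020 alone gave no called member. At an unadjusted p under 0.05 there were 2 of 34 (5.88%), Adamts12 and Adamts9, against 5.46% of all genes, and DESeq2 and limma on FPKM called 0 as well. Adamts9, another versican-cleaving protease, was at a log2 difference of -0.41 ± 0.18. The PB-020 tumors lay below all CK tumors for Adamts12, Adamts7, Adamts9, Mmp2 and Mmp28, against 8.74% of all genes, and above them for 0 members, against 6.19%. Of the 14 ADAMTS genes all had log2 differences at or below -0.03, with a median of -0.22, none called, where 51.3% of all genes were below 0. Without CK 3, Adamts4 was at 0.11 ± 0.18 and Adamts6 at 0.09 ± 0.12, and the others stayed below 0.

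Adding anti-PD-1 to PB-020 changed 6 of the 34 members (17.6%, against 3.35% of all genes). Mmp2, Mmp14, Timp2, Adamts1 and Adamts7 fell (2.11% of all genes) and Mmp23 rose (1.25%). For Mmp2 the log2 change was -0.77 ± 0.12 (edgeR adjusted p = 0.018), for Adamts7 -1.01 ± 0.16 (adjusted p = 0.019) and for Mmp23 1.12 ± 0.28 (adjusted p = 0.049). Leaving out 1 of PB-020 1, PB-020 3, combination 1 or combination 2 left 0 called, and leaving out combination 3 left 1. The share of all genes called in these refits was not counted. Over all 22 other settings, Mmp23 lost its call in 15 and Timp2 in 11.

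Adding PB-020 to anti-PD-1 changed 0 of the 34 by edgeR, as it did 0 (0%) of all 13563 genes. DESeq2 and limma also called 0 members. At an unadjusted p under 0.05 there were 0 members, against 7.26% of all genes. The smallest p belonged to Mmp2, with a log2 difference of -0.25 ± 0.12 (unadjusted p = 0.065, edgeR adjusted p = 0.70). Its 3 values per group, 267, 319 and 256 against 231, 221 and 259 FPKM, overlapped. For 0 members did all combination tumors lie above, or all below, all anti-PD-1 tumors, against 5.12% and 4.90% of all genes. The interaction gave 0 called members by the same tools, and by edgeR 0 (0%) of all genes passed. At an unadjusted p under 0.05 it gave 1 member, Adamts12, against 2.29% of all genes. With 3 tumors a group, a p that misses the threshold does not show that values were alike.

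Other genes of the pathway were counted in the same way. Of 56 such genes in the table (plasminogen system, ADAM proteases, cathepsins with their inhibitor Cst3, regulators, ADAMTS-like proteins and substrates), 48 were tested. With PB-020, 0 of the 48 changed (0% of all genes). With anti-PD-1, 6 of the 48 fell and 0 rose, where 4.08% of all genes fell and 4.18% rose. In the combination group, 9 of the 48 fell and 0 rose, where 9.60% of all genes fell and 8.35% rose. Those 9 in the combination group were the tissue plasminogen activator Plat (37.2 ± 3.04 to 23.2 ± 1.21 FPKM, log2 change -0.66 ± 0.09, edgeR adjusted p = 0.0015), the membrane inhibitor of MMPs Reck, the receptor Lrp1, which takes up proteases and their complexes, the serine protease Htra3, Adam9, Adamtsl3 and the substrates Col3a1, Vcan and Fn1. Versican, a substrate of Adamts1 and its relatives, fell from 102 ± 10.6 to 58.8 ± 3.62 FPKM (-0.76 ± 0.12, edgeR adjusted p = 0.0024). Fibronectin (Fn1) fell from 211 ± 36.0 to 122 ± 15.2 FPKM (-0.76 ± 0.19, edgeR adjusted p = 0.022). Of the 8 genes listed as cathepsins, which include the cathepsin inhibitor Cst3, 0 changed. Neither did Furin, which activates MMP precursors inside cells (0.13 ± 0.10, edgeR adjusted p = 0.37), nor the MMP inducer Bsg (0.05 ± 0.08, adjusted p = 0.70).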

How the data were processed

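Gene expression was measured by RNA-seq in 12 MC38 tumors (4 groups of 3) on an Illumina instrument with pairs of 150 bases. The authors aligned reads with Bowtie2 and quantified genes with RSEM, and the submitters' processing notes name HISAT, Bowtie2 and GRCm38.p6, while versions and annotation are not given in the sources used here. The expected counts deposited by the authors were not normalized, and 91% of them were whole. FPKM, also from the authors, corrects for gene length and library size. TPM from the authors brings each library to the same total. Age, dose and day come from the study's methods. Nothing says how tumors of a group were picked. The p values judge group differences against the spread between these tumors. How far they hold for other mice of the groups is not known.

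Expected counts were rounded and analysed in R 4.3.3 with edgeR 4.0.16: filterByExpr (minimum count 10, 13563 genes left), TMM scaling, and a robust quasi-likelihood fit of 4 group means to all 12 libraries. Tests were two-sided, with Benjamini-Hochberg adjustment over all genes tested. The biological coefficient of variation is the square root of edgeR's dispersion. RSEM divides reads shared by near-identical genes, so Mmp1b is uncertain. Replicates differed by more than counting noise. All 43 members matched RefSeq, and Mmp1a, Mmp7 and Mmp20 were not analysed here. Promoters are RefSeq sequence of GRCm38.p6. The fit was tested on simulated counts.

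The members, lists and splits were chosen with earlier results of these data known. Genes named with values are members called in any comparison, the TIMPs, the 5 with the highest mean FPKM, the smallest p in the comparisons of PB-020 with CK and of the combination with each drug, and pathway genes that passed against CK. Mmp3, Mmp8, Mmp9, Mmp10, Mmp13, Mmp25, Adamts2, Adamts4, Adamts5, Adamts6, Adamts9, Adamts13 to Adamts16, Mmp27, Furin and Bsg are named besides, after their values were seen. The 22 alternatives were DESeq2 1.42.0, limma 3.58.1 on log2(FPKM + 1) and log2(FPKM + 0.1), no filter, a strict filter (50 counts in 3 tumors), scaling by library size or by median-ratio factors, a fit of the compared groups alone, a block for the replicate number, omission of each tumor, and, chosen after seeing the data, limma on log2(TPM + 1).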

Additional observations from a re-analysis of the deposited data

How the results depend on the processing

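Over 84 named changes and 22 other settings, 1834 values were compared: 1654 kept direction and side of the threshold, 100 were no longer called, 12 were newly called and 68 changed sign. The changes of sign were in 19 changes that had not passed the test, and none of the 24 calls changed sign. The 84 are those of members called in any comparison, the tested TIMPs and the 5 highest members. Other members named above are not in this tally, and some turned by more. Without CK 3, Mmp3 in the combination group went from -1.01 to 0.42. Without anti-PD-1 1, Adamts15 with anti-PD-1 went from 1.14 to -0.15. Leaving out 1 tumor gave log2 differences for PB-020 against CK of -0.12 to 0.11 for Mmp11, -0.07 to 0.18 for Mmp23, -0.12 to 0.18 for Timp1, -0.06 to 0.07 for Timp2 and -0.13 to 0.17 for Timp3. For the combination against anti-PD-1 they were -0.13 to 0.30 for Adamts12, -0.22 to 0.01 for Mmp11, -0.04 to 0.61 for Mmp23, -0.09 to 0.14 for Mmp28 and -0.01 to 0.18 for Timp1. For the interaction they were -0.07 to 0.14 for Adamts1, -0.08 to 0.10 for Adamts10, -0.12 to 0.28 for Adamts7, -0.21 to 0.03 for Mmp11, -0.24 to 0.24 for Mmp12, -0.12 to 0.04 for Mmp14, -0.13 to 0.10 for Mmp2, -0.05 to 0.59 for Mmp23 and -0.08 to 0.20 for Timp1. Under limma on FPKM, limma on TPM or library size alone, Timp2 with PB-020 was at -0.01, -0.07 and -0.01 and the interaction of Mmp2 at 0.02, 0.01 and 0.01. Library size alone gave -0.01 for Mmp23 with PB-020, and limma on TPM gave -0.05 for Timp3 with PB-020 and -0.02 for Adamts12 in the combination against anti-PD-1. Mmp28 in the latter comparison (-0.01) was at 0.00 by limma on log2(FPKM + 0.1), under the strict filter and with only the groups compared. Of the 24 calls, 6 held under every setting: Mmp2, Mmp14, Adamts1, Adamts7, Adamts8 and Adamts12 in the combination group against CK. Fitting only the groups compared, which uses fewer libraries, gave 0 called members for anti-PD-1 against CK (6 with all groups) and 11 for the combination against PB-020 (6). Limma on log2(TPM + 1), chosen after seeing the data, gave 2 for the latter. Leaving out 1 tumor gave 3 to 11 called members for anti-PD-1 against CK (3 without CK 2 or anti-PD-1 3, 11 without anti-PD-1 2), 6 to 14 for the combination against CK (6 without CK 2 or combination 1, 7 without combination 2, 14 without anti-PD-1 1) and 0 to 9 for the combination against PB-020 (9 without anti-PD-1 1), and 0 in the other 3 comparisons. The share of all genes called was not counted in any other setting. The moves of these counts therefore cannot be set apart from moves of all genes. The causes were not tested. The median change of the members with anti-PD-1 went from -0.28 to -0.14 without CK 3 and -0.17 without anti-PD-1 3, and that of the combination against anti-PD-1 from -0.12 to 0.03 without anti-PD-1 1. Pathway genes called with anti-PD-1 (6) were 10 by DESeq2, 0 with only the groups compared, and 3 without CK 2 or anti-PD-1 3. In the combination group (9) they were 14 with only the groups compared or without anti-PD-1 1. The labels share replicate numbers but give no pairing, and the deviations of 18 same-numbered pairs correlated at -0.21 to 0.29 (2 above 0.1), against -0.22 to 0.36 for 36 other pairs. With the replicate number as a block, 5 members were called with anti-PD-1, 10 in the combination group and 3 for the combination against PB-020. Genes under about 100 counts per library, such as Adamts8 and Mmp23, have the least depth.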
